A study of Mus musculus with 4 samples.

Results

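Immediate early and stress-induced genes are transcripts that a cell switches on within minutes of a stimulus, and 35 of them, chosen by symbol, were followed among the 31053 genes of a single-cell RNA-seq study of mouse marrow. All 35 symbols were found. They comprise the EGR, AP-1, NR4A and KLF transcription factors, the early response (Ier) genes and other regulators, feedback and RNA decay factors, small GTPases and an exchange factor, the matrix protein gene Cyr61 and a pair of inducible HSP70 genes. The study deleted Vegfc, which encodes a lymphatic and vascular growth factor, and irradiated the mice.

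There were 4 libraries, 1 per group. Every set of 4 values gives control and then Vegfc-deleted mice without irradiation, followed by control and then Vegfc-deleted mice after it. All mice were of the C57Bl/6JCrl strain and carried Vegfc flox/flox alleles. Controls had no Cre, and deleted mice carried Rosa26-CreERT2, a tamoxifen-inducible recombinase active in all cell types. Tamoxifen was given in 5 consecutive doses at 7 to 8 weeks of age. The labels differ on which groups received it, since 1 passage names samples 1 to 3 and another both genotypes. Irradiation was 4 Gy to the whole body 2 weeks later, and marrow was taken 7 days after it. Tibial marrow was flushed out, treated with dispase II, collagenase I and a DNase, depleted of red cells and sorted for cells negative for DAPI, lineage markers, CD45 and Ter119, after injection of a VE-Cadherin antibody. Each library pooled 3, 3, 2 and 2 mice, although another passage gives 3 irradiated mice per genotype, so no spread between animals could be measured and no difference between libraries was tested. Because each group was also 1 preparation, treatment and handling (time, digestion, sort) cannot be told apart.

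As background, immediate early genes need no new protein for their induction. Factors already present in the cell, among them SRF with its partners, CREB and HSF1, are activated by kinases or protein damage and start transcription. Most of the transcripts carry signals for rapid decay, so a level reflects the recent past of the cell. Several products, such as Dusp1 and Zfp36, in turn shut the response down. Tissue dissociation is known to induce many of these genes, and in endothelium Klf2 and Klf4 respond to blood flow.

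After quality and doublet filters, 5058, 5211, 3837 and 4065 cells were kept, with medians of 7635.5, 7851, 9874 and 9808 unique molecular identifiers (UMIs, counted mRNA molecules). Clusters were made without the 35 genes and were named from marker lists, giving 6 classes that were compared. Library pairs shared between 13 and 117 cell barcodes. In the endothelial class, 8 endothelial markers summed to 6736, 5848, 7689 and 6992 CPM (UMIs of a gene per 1000000 UMIs of the class). Its clusters, 0, 7 and 24, all scored highest for the sinusoidal list, so endothelium stands here for sinusoidal-like cells. The unnamed cluster 25, which scored highest for the general endothelial list, is outside the class. In the LepR+ stromal class, 7 markers of these Cxcl12-producing perivascular cells summed to 39010, 36482, 43118 and 36399 CPM, while the endothelial list was at 16.13, 13.38, 60.8 and 20.24 CPM there. Most endothelial, LepR+, B-lineage and neutrophil cells of the irradiated libraries lay in other clusters than most of those of the non-irradiated ones. Erythroid cluster 4 (578, 652, 6 and 4 cells) and monocyte-macrophage cluster 16 (5, 8, 50 and 301 cells) were also uneven, so the make-up of all 6 classes differed between libraries. Cells of haematopoietic classes were present although the sort was for CD45- cells. Vegfc, the targeted gene, was at 167, 17.4, 174 and 24.3 CPM in the LepR+ stromal class, low in both deleted libraries; which part of the gene was removed is not given, so these 3′ tags need not lie in it.

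Of the 6 classes, the 35 genes took the largest share of UMIs in endothelial and LepR+ stromal cells, and that share was lower in the irradiated libraries. In endothelial cells (311, 362, 1548 and 738 cells) they made up 4.104%, 3.794%, 2.196% and 1.135% of all UMIs. In LepR+ stromal cells (1215, 766, 473 and 190 cells) they made up 4.55%, 4.77%, 2.187% and 0.9289%. Both irradiated libraries were under both non-irradiated ones, and the irradiated Vegfc-deleted library was lowest in each class. The blood classes held far less. Erythroid cells had 0.2426%, 0.1497%, 0.1507% and 0.0984%, with the irradiated control and non-irradiated deleted libraries nearly level. B-lineage cells had 0.596%, 0.6841%, 0.1726% and 0.1322%. Neutrophils had 0.7881%, 0.5766%, 0.4984% and 0.3268%, and monocytes and macrophages 1.147%, 1.112%, 0.8352% and 0.5483%. In all 6 classes the irradiated deleted library was the lowest of the 4.

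**Figure D1:**
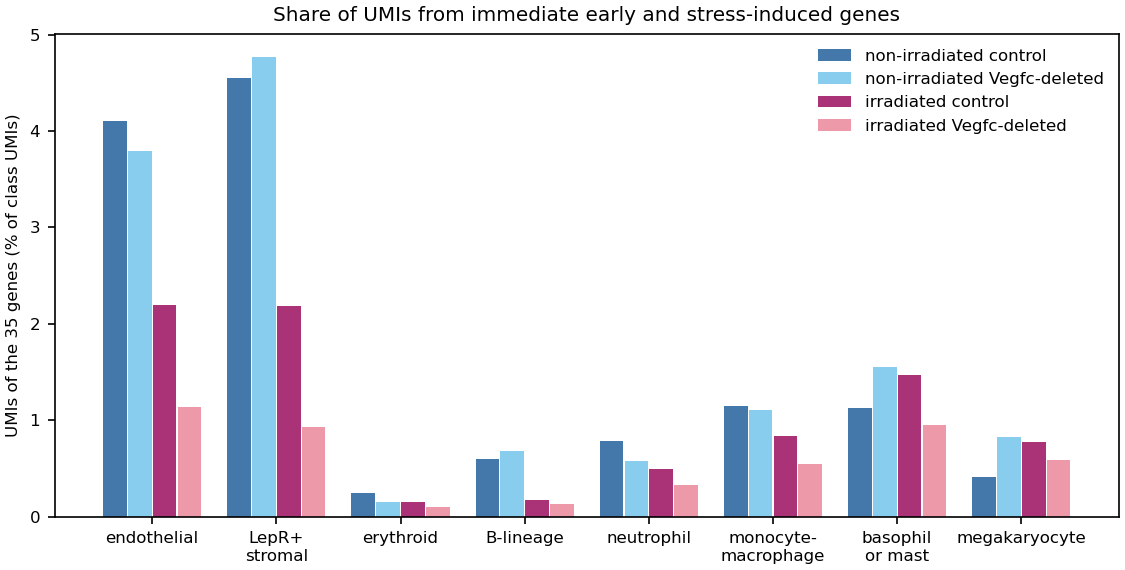
Bars give the summed UMIs of the 35 genes as a percentage of all UMIs of a class (y axis) in each of the 4 libraries, for the 6 classes compared and 2 rarer ones (basophil or mast cells and megakaryocytes). Endothelial and LepR+ stromal bars stand near 4% or above in the non-irradiated libraries and at 2.196% or less in the irradiated ones, and each bar is 1 library with no error bar.

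The lower share was spread over the cells rather than carried by a few. When each cell was thinned to 1500 UMIs, the median endothelial cell held 59, 56, 32 and 16 UMIs of the 35 genes. The range from the 10th to the 90th percentile of cells was 32 to 92, 13 to 89, 8 to 56 and 3 to 32. LepR+ stromal medians were 69, 74, 33 and 14 UMIs, with ranges of 38 to 106, 42 to 112, 7 to 56.4 and 1 to 29.9. In the non-irradiated control library the lower bound of the LepR+ range lay above the median of both irradiated libraries, although the ranges of cells overlapped. B-lineage medians were 9, 11, 3 and 2 UMIs and erythroid medians 3, 2, 2 and 1. Cells under 1500 UMIs were left out, 4, 5, 36 and 26 of them endothelial and 18, 30, 36 and 32 LepR+ stromal.

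**Figure D2:**
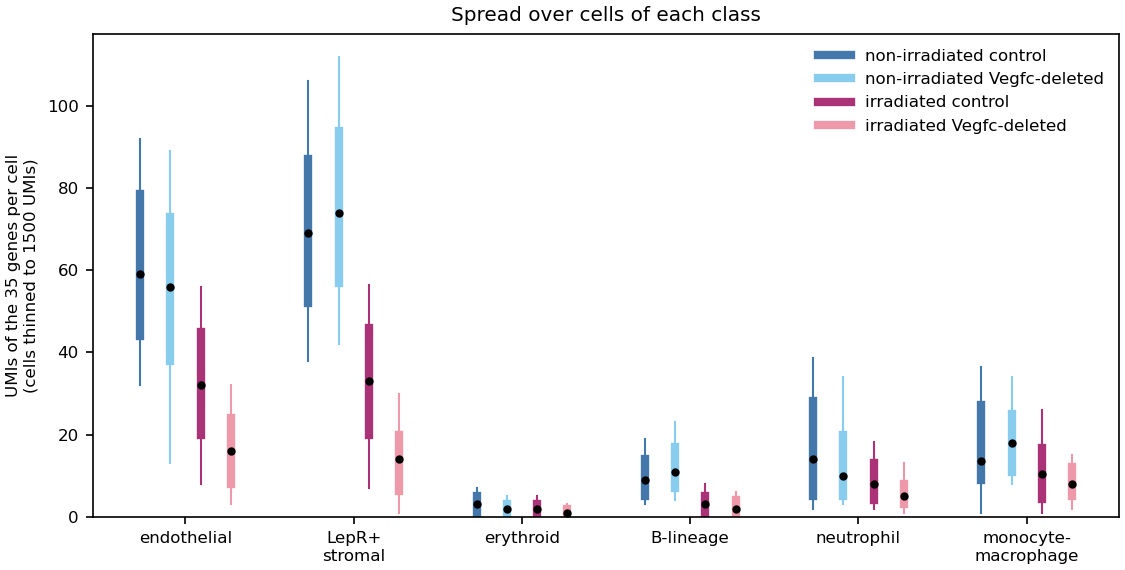
The y axis is the number of UMIs of the 35 genes per cell after thinning each cell to 1500 UMIs; points are medians over cells, thick bars the middle part of the cells and thin lines the span from the 10th to the 90th percentile, by class and library. Endothelial medians go from 59 and 56 in the non-irradiated libraries to 32 and 16 in the irradiated ones.

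Free RNA in the droplets could carry these transcripts from class to class. Cxcl12, a stromal chemokine gene, reached in the other 5 classes 0.0568% to 1.84% of its LepR+ level. The members' summed level there was 3.14% to 122% of the LepR+ level, and in endothelium it was 90.2%, 79.5%, 100% and 122%. RNA of other cells also moved with the groups: haemoglobin transcripts were at 7330, 7942, 586 and 251.3 CPM in endothelial cells and 9312, 9903, 2157 and 3071 CPM in LepR+ cells, and neutrophil granule transcripts at 137.3, 454.3, 123.5 and 826.4 CPM and at 129.4, 382.6, 145.5 and 2336 CPM. Their part in the results was not tested.

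RefSeq promoter windows (GRCm38.p6, 250 bases before to 50 after the start, both strands searched) were matched for 26 of the 35 members; Egr1, Egr3, Ier2, Gem, Rnd1, Trib1, Phlda1, Cyr61 and Myc had no entry. The short core of the cyclic AMP response element, TGACG, lay in 16 of the 26 (61.5%), against 23.0% of 27025 genes. The full element TGACGTCA, which contains that core, lay in 4 (15.4%; Maff, Dusp1, Btg2 and Plk2) against 2.03%. The SRF-binding CArG box lay in Egr2 and Zfp36, 7.69% of members against 1.81% of genes. The EGR element GCGGGGGCG lay in 6 (23.1%) against 3.31%, the AP-1 element TGANTCA in Csrnp1 alone (3.85% against 8.97%), and TATAAA in 4 (15.4% against 15.7%). Paired heat shock units were found in 0 of the 26, against 0.662% of genes. A match describes letters in this window and is not evidence of binding. The 5 windows printed here, the 250 bases before the start read 5′ to 3′ on the gene's strand, are those of members whose irradiation ratios are set against each other in what follows. Capitals mark TGACG or its reverse complement CGTCA, the full element, CArG boxes and TATAAA.
Fos: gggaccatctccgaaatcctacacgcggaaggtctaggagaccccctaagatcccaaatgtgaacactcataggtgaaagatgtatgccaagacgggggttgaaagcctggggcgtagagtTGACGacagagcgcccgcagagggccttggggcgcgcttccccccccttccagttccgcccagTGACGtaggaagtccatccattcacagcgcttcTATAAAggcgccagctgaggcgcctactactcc
Nr4a1: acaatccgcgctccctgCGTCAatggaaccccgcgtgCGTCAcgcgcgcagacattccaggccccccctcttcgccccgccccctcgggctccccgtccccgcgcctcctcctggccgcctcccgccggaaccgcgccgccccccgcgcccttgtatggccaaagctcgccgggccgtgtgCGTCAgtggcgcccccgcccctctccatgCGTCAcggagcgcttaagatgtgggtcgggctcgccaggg
Dusp1: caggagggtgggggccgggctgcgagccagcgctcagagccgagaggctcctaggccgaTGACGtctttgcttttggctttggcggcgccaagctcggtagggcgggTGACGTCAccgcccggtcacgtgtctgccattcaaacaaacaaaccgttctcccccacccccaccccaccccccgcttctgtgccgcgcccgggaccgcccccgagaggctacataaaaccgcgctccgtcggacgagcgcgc
Egr2: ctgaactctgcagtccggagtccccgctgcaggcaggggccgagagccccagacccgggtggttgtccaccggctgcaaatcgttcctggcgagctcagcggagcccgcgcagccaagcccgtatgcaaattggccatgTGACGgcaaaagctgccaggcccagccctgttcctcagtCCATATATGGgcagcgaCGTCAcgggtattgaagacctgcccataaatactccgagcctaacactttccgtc
Zfp36: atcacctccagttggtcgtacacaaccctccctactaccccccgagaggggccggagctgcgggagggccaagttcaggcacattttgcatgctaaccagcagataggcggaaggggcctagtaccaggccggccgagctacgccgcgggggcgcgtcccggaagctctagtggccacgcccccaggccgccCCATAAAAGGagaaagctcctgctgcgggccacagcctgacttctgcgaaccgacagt
They lie at chr12:85473640-85473889 (plus strand), chr15:101266596-101266845 (plus), chr17:26508473-26508722 (minus), chr10:67537619-67537868 (plus) and chr7:28379229-28379478 (minus). Each ends at the base before an annotated transcription start. The genes themselves (GRCm38) are Fos, ENSMUSG00000021250, at chr12:85473890-85477273, Nr4a1, ENSMUSG00000023034, at chr15:101254269-101274795, Dusp1, ENSMUSG00000024190, at chr17:26505590-26562128, Egr2, ENSMUSG00000037868, at chr10:67535475-67542188, and Zfp36, ENSMUSG00000044786, at chr7:28376784-28380253. Fos has TGACG cores and a TATA box, Nr4a1 several cores, Dusp1 the full element, Egr2 a CArG box beside cores, and Zfp36 a CArG box. The EGR element of Nr4a1 and Zfp36 is not in capitals.

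Irradiated and non-irradiated libraries were then compared gene by gene within a class. A member was counted where either library had at least 30 UMIs, and it was called lower or higher past 1.5-fold. Ratios are log2 of CPM, and their 95% intervals cover counting error only. In control mice, 28 of 35 members were lower in irradiated endothelium and 0 were higher, with a median of -1.43 (range -4.25 to 0.27). Of all genes counted in that comparison, 7.80% were lower and 18.1% higher (10.7% and 13.2% with trimmed mean scaling, under which 30 members were lower), and their median was 0.18. That scaling moved the median of all genes in control mice from 0.18 to 0.04 in endothelium, from 0.16 to -0.06 in LepR+ cells, from -0.61 to -0.20 in erythroid cells and from 0.23 to -0.01 in neutrophils. In LepR+ stromal cells 28 of 34 were lower and 0 higher, with a median of -1.43, where 10.4% of all genes were lower and 17.4% higher (16.6% and 9.11% with trimmed mean scaling, under which 33 members were lower). In Vegfc-deleted mice 34 of 35 were lower in endothelium (median -2.39) and 32 of 33 in LepR+ cells (median -2.67). Of all genes, 7.17% were lower and 15.2% higher in that endothelial comparison (9.36% and 10.9% with trimmed mean scaling) and 12.5% and 18.3% in the LepR+ one (18.1% and 11%). The members counted but not lower were Klf6 in endothelium and Hspa1b in LepR+ cells.

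**Figure D3:**
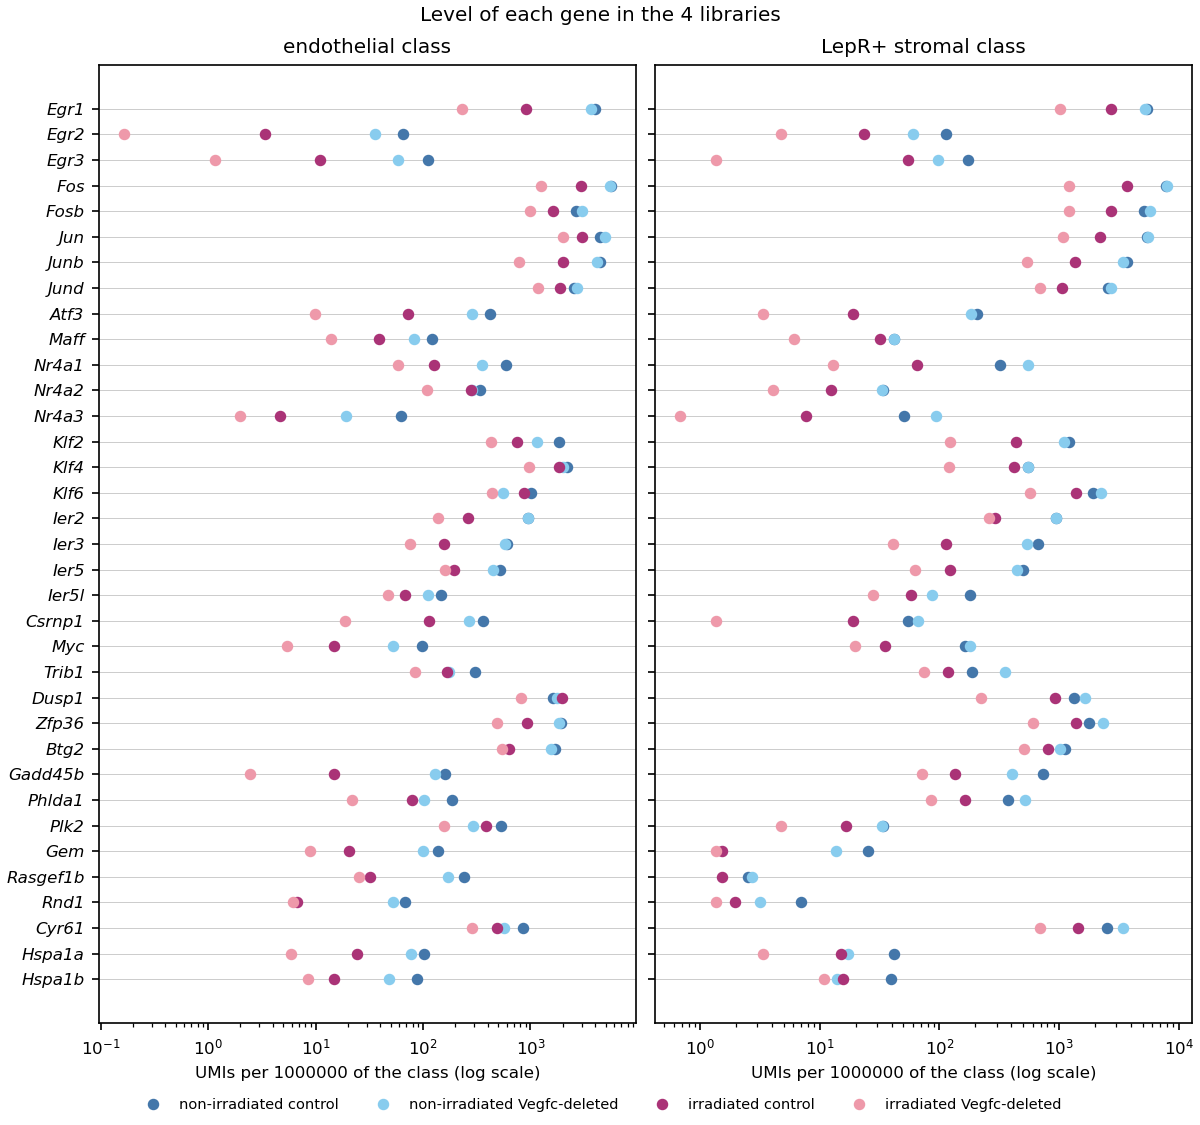
Each point is the level of 1 of the 35 genes (rows) in 1 library, in UMIs per 1000000 of the class on a log axis, for endothelial (left) and LepR+ stromal cells (right); the 1 library with 0 UMIs (Rasgef1b, irradiated Vegfc-deleted, LepR+ stromal) has no point. Wherever it is drawn, the irradiated Vegfc-deleted point is the leftmost of a gene's points, at 1260 for endothelial Fos against 5637 in the non-irradiated control.

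The EGR zinc-finger transcription factors, direct targets of SRF, were far lower in irradiated libraries, 3 of 3 in both classes and both genotypes. Egr1 was at 4021, 3626, 908.7 and 231.1 CPM in endothelium and at 5443, 5187, 2710 and 1013 CPM in LepR+ cells. Egr2 was at 65.11, 35.48, 3.393 and 0.1641 CPM in endothelium (the last from 1 UMI) and at 114.5, 60.44, 23.24 and 4.722 CPM in LepR+ cells. Egr3 was at 111.1, 59.04, 10.89 and 1.149 CPM and at 174.8, 96.83, 54.51 and 1.349 CPM. For all 3 genes both irradiated libraries were under both non-irradiated ones in both classes. Egr1 had an endothelial log2 ratio of -2.15 (95% interval -2.18 to -2.11) in control and -3.97 (-4.05 to -3.89) in deleted mice, against -1.01 (-1.03 to -0.98) and -2.36 (-2.43 to -2.28) in LepR+ cells. Egr2, whose window with the CArG box is printed above, had endothelial ratios of -4.25 (-4.71 to -3.83) and -7.18 (-13.07 to -5.25), the latter wide because of that 1 UMI.

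AP-1 factors are dimers of FOS, JUN and ATF family proteins. Fos was at 5637, 5486, 2979 and 1260 CPM in endothelium and at 7810, 8014, 3723 and 1214 CPM in LepR+ cells. Its close relative Fosb was at 2626, 3018, 1616 and 996.9 CPM and at 5125, 5775, 2692 and 1203 CPM. In both genes the non-irradiated libraries lay close together and the irradiated deleted library was lowest. Jun was at 4436, 4902, 2995 and 2000 CPM in endothelium and at 5480, 5551, 2185 and 1089 CPM in LepR+ cells. Junb was at 4458, 4121, 2005 and 788.2 CPM and at 3678, 3439, 1368 and 540.3 CPM. Jund, the member of the family with the steadiest expression in most tissues, was at 2517, 2696, 1889 and 1170 CPM and at 2577, 2743, 1056 and 691.4 CPM. Jun and Jund had the smaller endothelial ratios in control mice, -0.57 and -0.41, and did not pass 1.5-fold there. Atf3, a stress-induced repressor, was at 424, 286.3, 72.75 and 9.848 CPM in endothelium and at 207.7, 181.9, 19.11 and 3.373 CPM in LepR+ cells. The small MAF protein gene Maff was at 120.5, 82.6, 39.23 and 13.79 CPM and at 42.04, 41.5, 31.92 and 6.071 CPM. Atf3 had the largest ratios of the group, -2.54 and -4.85 in endothelium and -3.43 and -5.62 in LepR+ cells. Of 7 members, 5 and 7 were lower in endothelium (control and deleted mice; medians -0.92 and -2.12) and 6 and 7 in LepR+ cells (-1.29 and -2.67).

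The NR4A orphan nuclear receptors are induced through CREB and MEF2. Nr4a1 was at 594, 354.5, 125.5 and 58.43 CPM in endothelium and at 321.1, 545.9, 65.15 and 12.82 CPM in LepR+ cells. Nr4a2 was at 342.7, 283.6, 280 and 108.7 CPM and at 33.88, 32.93, 12.38 and 4.047 CPM. Nr4a3 was at 62.19, 19.4, 4.644 and 1.97 CPM and at 50.28, 94.42, 7.6 and 0.6746 CPM, the last from 1 UMI. Nr4a2 in endothelium stood out, with 3 libraries close together and only the irradiated deleted one low. Nr4a1, whose window holds several cores of the cyclic AMP element, had endothelial ratios of -2.24 (-2.33 to -2.15) and -2.60 (-2.77 to -2.43), and LepR+ ratios of -2.30 and -5.38 (-6.15 to -4.77).

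Among the KLF factors, which in endothelium hold the vessel wall in a quiescent state, Klf2 was at 1832, 1149, 750.9 and 424.8 CPM in endothelium and at 1218, 1090, 433.9 and 123.4 CPM in LepR+ cells. Klf4 was at 2170, 2020, 1840 and 964 CPM and at 547, 548.8, 423.9 and 120.1 CPM. Klf6, a broadly expressed injury-response factor, was at 1014, 552.1, 874 and 434.3 CPM and at 1938, 2241, 1386 and 566.6 CPM. Klf2 alone of the 3 was lower past 1.5-fold in irradiated control endothelium, at -1.29 (-1.33 to -1.24). In endothelium Klf6 was ordered by genotype, with both deleted libraries under both controls, and its irradiation ratios were only -0.21 and -0.35. In LepR+ cells as a class the Klf6 ratio was -0.48 in control and -1.98 in deleted mice. The genotypes did not differ that way in cluster 2, where Klf6 was at 1901, 2208, 698 and 1031 CPM (1070, 627, 40 and 18 cells). In cluster 14, of low depth, it was at 3012, 2869, 1229 and 207 CPM.

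The early response genes and their companions were lower in every comparison of irradiation, 7 of 7 in both classes and both genotypes, with medians of -1.68 and -2.78 in endothelium and -1.70 and -2.83 in LepR+ cells. Ier2, a nuclear early response gene, was at 945.2, 952.1, 262.7 and 138.2 CPM in endothelium and at 950.2, 943.2, 292.9 and 257.7 CPM in LepR+ cells. Ier3, which modulates survival and NF-kB signalling, was at 606, 573.8, 158.1 and 75.99 CPM and at 664.3, 541.9, 112.7 and 41.15 CPM. Both showed near-equal non-irradiated libraries. Ier5, also a p53 target, was at 517.9, 449.3, 192.4 and 158.9 CPM in endothelium and at 497.6, 447, 122.3 and 62.74 CPM in LepR+ cells. Its relative Ier5l was at 147.7, 111.4, 67.33 and 46.78 CPM and at 181.5, 85.85, 58.2 and 27.66 CPM. Csrnp1, a nuclear protein gene, was at 363.4, 267.8, 113.4 and 18.88 CPM and at 54.41, 66.31, 18.89 and 1.349 CPM, the last from 2 UMIs. Csrnp1 differed most by genotype after irradiation among these. The growth regulator Myc was at 97.17, 52.11, 14.82 and 5.416 CPM in endothelium and at 164.5, 181.3, 34.96 and 19.56 CPM in LepR+ cells. The pseudokinase gene Trib1 was at 304.1, 174.9, 165.9 and 83.71 CPM and at 185.9, 353.2, 118.8 and 74.88 CPM. In endothelium the non-irradiated deleted and irradiated control levels of Trib1 were nearly the same.

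Feedback and RNA decay factors were more mixed. Dusp1, a phosphatase that inactivates p38 and JNK, was at 1626, 1750, 1965 and 811 CPM in endothelium and at 1332, 1654, 918.1 and 221.3 CPM in LepR+ cells. Its endothelial ratio was 0.27 (0.23 to 0.32) in control mice, the only member with a ratio above 0 there, and -1.11 (-1.16 to -1.06) in deleted mice. Zfp36, which binds AU-rich transcripts and promotes their decay, was at 1940, 1834, 926.3 and 484.7 CPM in endothelium and at 1790, 2310, 1395 and 611.2 CPM in LepR+ cells. Btg2, a deadenylase partner and p53 target, was at 1707, 1548, 633.9 and 542.6 CPM and at 1124, 1017, 813.9 and 505.9 CPM. In endothelium, irradiated Btg2 levels hardly differed by genotype. Gadd45b, a stress sensor upstream of p38, was at 160, 129.4, 14.94 and 2.462 CPM in endothelium and at 733.8, 407.5, 134.2 and 70.83 CPM in LepR+ cells. Phlda1, a pleckstrin-homology protein gene, was at 185.6, 102.8, 78.94 and 21.67 CPM and at 370.9, 521.4, 164 and 85 CPM. Polo-like kinase gene Plk2, also a p53 target, was at 528.3, 290.2, 382.2 and 157.1 CPM and at 33.97, 32.93, 16.5 and 4.722 CPM. Of these 6 genes, 4 and 6 were lower in endothelium and 3 and 6 in LepR+ cells.

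The GTPase genes had higher levels in endothelium than in LepR+ cells in each library. Gem, a Ras-like GTPase that restrains calcium channels, was at 137.7, 99.78, 20.54 and 8.863 CPM in endothelium and at 25.37, 13.68, 1.52 and 1.349 CPM in LepR+ cells. Rasgef1b, a Ras-family exchange factor, was at 239, 169.4, 31.97 and 25.28 CPM in endothelium and had 28, 18, 7 and 0 UMIs in LepR+ cells, too few to be counted. Rnd1, a GTPase that loosens the actin cytoskeleton, was at 68.02, 52.11, 6.668 and 6.237 CPM in endothelium and at 6.902, 3.157, 1.954 and 1.349 CPM in LepR+ cells. In endothelium all 3 were low in both irradiated libraries, with ratios between -2.74 and -3.48 in the 2 genotypes. Cyr61, a matricellular target of YAP and SRF, was at 843.5, 564.3, 487.5 and 288.1 CPM and at 2537, 3449, 1446 and 693.5 CPM. The chaperone gene Hspa1a was at 101.7, 77.89, 24.47 and 5.909 CPM in endothelium and at 41.59, 17.14, 14.98 and 3.373 CPM in LepR+ cells. Its near-copy Hspa1b was at 88.43, 48.23, 15 and 8.535 CPM and at 39.44, 13.98, 15.64 and 10.79 CPM. The promoters of this pair were identical at 98.7% of positions, which does not bear on how reads were assigned. The last 300 transcript bases were identical at 62.3%. How reads were divided between the genes was not tested. Hspa1b in LepR+ cells of deleted mice had a ratio of -0.34 with an interval from -1.24 to 0.40.

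The blood classes differed among themselves. In B-lineage cells 23 of 29 members were lower after irradiation in control mice and 29 of 30 in deleted mice (medians -1.37 and -2.48), against 22.2% and 26.9% of all genes. The 1 other called member was higher in each, against 21.5% and 15.1%. Fos was at 86.5, 124.4, 71.63 and 47.16 CPM, Jun at 522.2, 591.2, 196 and 133.9 CPM and Junb at 271.9, 467.6, 86.37 and 65.56 CPM. Over the class, all 3 were lowest in the irradiated deleted library and highest in the non-irradiated deleted one. Junb kept that order in B-lineage clusters 5 and 9, present in every library, and Jun in cluster 5. Fos did not, at 81.7, 67.6, 97.6 and 86.5 CPM in cluster 5. In cluster 9 Fos was at 85.8, 75.7, 55.5 and 129 CPM, the irradiated values from 9 and 13 UMIs. Of Fos UMIs in the non-irradiated deleted library, 301 came from cluster 27, which held 9, 78, 0 and 0 cells. Egr1 was at 85.37, 101, 42.31 and 17.92 CPM, and Ier2 at 141.9, 247.6, 68.62 and 56.12 CPM. Klf2, which holds lymphocytes in quiescence, was at 276.8, 472.2, 81.93 and 96.21 CPM, and Klf6 at 119.6, 160, 75.75 and 50.94 CPM. Over the class, both irradiated libraries were the lower pair for these 4 genes. Within cluster 5 this failed for Klf2 alone, at 103, 203, 85 and 112 CPM. In cluster 9, with 28 and 11 irradiated cells, it held for Egr1 and for Klf2 (567, 771, 432 and 547 CPM) but not for Ier2 or Klf6. Cluster 21, of 0, 5, 216 and 78 cells, had Klf2 at 68.4 and 64.5 CPM in the irradiated libraries. Dusp1 was at 54.96, 74.23, 55.78 and 30.18 CPM, with the 2 controls level, and Hspa1a had 15, 38, 10 and 0 UMIs. Among members picked out after their values were seen, Jund was at 2767, 2696, 462.9 and 354.2 CPM and Btg2 at 715.9, 626.8, 99.68 and 94.8 CPM there. Egr3 was at 8.785 and 15.23 CPM in the non-irradiated libraries, with 0 UMIs in both irradiated ones. Myc was the exception in B-lineage cells, at 9.911, 13.11, 29.32 and 42.92 CPM (ratios 1.55 and 1.71). Of its 185 UMIs in the irradiated control library, 170 came from cluster 21, which held 0, 5, 216 and 78 cells. In B-lineage cluster 5, present in every library, Myc was at 12.1, 11.8, 9.45 and 30.5 CPM.

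Neutrophils had 19 of 28 members lower in control mice (8.12% of all genes lower and 25.8% higher, or 13.1% and 16.1% with trimmed mean scaling) and 22 of 29 in deleted mice (9.27% and 14.9%). Egr1 was at 634.9, 389.4, 163.4 and 120.6 CPM, Junb at 992.7, 661.5, 575.1 and 366.7 CPM and Klf6 at 527.5, 416.9, 319.8 and 252.8 CPM. Over the class, these 3 had the same order of libraries, with both irradiated ones low. In cluster 8, with at least 10 cells in every library, Egr1 and Junb did not keep it. There Egr1 was at 106, 150, 128 and 127 CPM and Junb at 111, 162, 240 and 162 CPM. Klf6 kept it narrowly, at 245, 227, 221 and 212 CPM. Cluster 15, of 76, 288, 1 and 6 cells, had Egr1 at 1159 and 741 CPM in the non-irradiated libraries. Dusp1 was at 802.1, 395.4, 496.9 and 224.3 CPM, so both deleted libraries were under both controls over the class. In cluster 8 they were not, at 16.5, 33.1, 122 and 67.1 CPM. Jun was at 87.24, 147.8, 240.7 and 68.77 CPM and Klf2 at 318.3, 504.2, 511 and 321.3 CPM, neither ordered by irradiation. Hspa1a had 2, 3, 5 and 10 UMIs and Myc 2, 14, 2 and 15, too few to be counted. Nr4a1, picked out after its values were seen, was at 395.8, 231.8, 62.28 and 39.67 CPM. Fos was at 533.9, 459.6, 792.8 and 471.2 CPM, highest in the irradiated control library, and Ier2 at 339.3, 357.4, 269.4 and 296.5 CPM. In this class the endothelial marker list was at 14.54, 11.02, 397.5 and 90.28 CPM, with all 8 markers at 3 UMIs or more in the irradiated libraries, and its part in the neutrophil values was not tested.

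Monocytes and macrophages had 14 of 30 members lower and 3 higher in control mice (11.0% and 16.7% of all genes), and 20 of 32 lower and 5 higher in deleted mice (10.4% and 19.2%). Klf2 was at 685.1, 1122, 227.4 and 196.1 CPM, Jun at 600.1, 486.2, 290.2 and 303.9 CPM and Ier2 at 301.4, 313.8, 136.1 and 164 CPM. All 3 were low in both irradiated libraries. Over the class, Junb was at 1062, 1005, 913.1 and 517 CPM and Dusp1 at 904.3, 744.6, 1001 and 393.4 CPM, low in the irradiated deleted library alone. Within clusters Junb was low in both irradiated libraries, at 1275, 1099, 693 and 434 CPM in cluster 12 and 827, 972, 637 and 425 CPM in cluster 19. Dusp1 was at 1760, 2044, 1012 and 460 CPM in cluster 12 and 304, 564, 475 and 338 CPM in cluster 19. Egr1 was at 513.8, 156.9, 407.8 and 241.6 CPM, with both controls above both deleted libraries. That order did not hold within cluster 12, where Egr1 was at 1091, 1266, 721 and 352 CPM, or cluster 19, at 146, 38.6, 14 and 30.6 CPM. Klf6 was at 472.7, 551.8, 623.4 and 422 CPM. Hspa1a was at 16.44, 12.63, 7.024 and 8.208 CPM and Myc at 17.81, 12.63, 24.58 and 19.3 CPM. Picked out after its values were seen, Nr4a1 was at 575.5, 587.3, 75.94 and 46.81 CPM. Egr2 and Ier3, also picked out afterwards, were higher after irradiation in both genotypes: Ier3 was at 90.43, 115.3, 283.1 and 174.7 CPM and Egr2 at 43.85, 19.56, 76.82 and 43.81 CPM. Fos was at 1476, 1780, 1400 and 986.6 CPM, with the control libraries close over the class but not in cluster 12 (1962 and 1127 CPM).

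In erythroid cells 12 of 25 were lower and 3 higher in control mice, where 51.3% of all genes were lower and 8.65% higher, and 8 of 22 were lower and 7 higher in deleted mice (46.7% and 9.98%). The count of 8 moved to between 13 and 17 with the members kept among the clustering genes, at a finer clustering, without doublet removal or without low-depth clusters, and to 5 at a 2-fold threshold. Scaling moved the control values to 8 lower and 6 higher, with 32.8% and 17.5% of all genes, and the deleted values to 6 and 7 with 27.2% and 16.4%. Haemoglobin transcripts took 354422, 301672, 547834 and 486035 CPM of this class. Over the class, Jun was at 123, 77.71, 33.01 and 12.51 CPM, and Ier2 at 117.9, 70.98, 54.12 and 24.68 CPM, both low after irradiation. In cluster 1 both deleted libraries were instead under both controls, Jun at 84.5, 24.4, 45.1 and 11.2 CPM and Ier2 at 114, 46.9, 82.3 and 24 CPM. In cluster 3 Jun kept the order of the class, while Ier2 was at 11, 8.56, 6.44 and 8.36 CPM. Cluster 4, of 578, 652, 6 and 4 cells, had Jun at 170 and 113 CPM without irradiation. Fos was at 38.01, 23.81, 30.13 and 15.89 CPM, Junb at 134.5, 59.84, 92.88 and 48.34 CPM and Egr1 at 23.81, 11.21, 30.9 and 8.789 CPM. Over the class, both deleted libraries were under both controls in these 3, though not for Fos within cluster 3 (51.8, 27.4, 21.8 and 4.18 CPM). In cluster 17 the order failed for all 3, with Fos at 54.2, 46.2, 56.7 and 103 CPM. Junb was at 132, 66.7, 99.2 and 238 CPM there, and Egr1 at 20.1, 25.7, 14.2 and 9.38 CPM. Dusp1 was at 203.8, 136.9, 227.6 and 103.1 CPM, in the same order of genotypes over the class but not in cluster 17 (61.9, 39, 42.5 and 109 CPM). Klf2 was at 7.038, 4.102, 2.495 and 2.028 CPM. Klf6 was at 16.58, 10.95, 19.19 and 58.82 CPM and Myc at 3.949, 6.775, 3.454 and 10.48 CPM, both highest in the irradiated deleted library. There, 134 of 174 Klf6 UMIs and 25 of 31 Myc UMIs came from the 45 cells of cluster 17, a low-depth cluster whose leading genes also include Ccr7, Il12b and Ccl5, and in cluster 1 Klf6 was at 19.1, 16.7, 17.1 and 11.7 CPM. Hspa1a had 11, 4, 9 and 1 UMIs. Ier3, picked out after its values were seen, was at 49.11, 16.88, 154.1 and 65.24 CPM, higher after irradiation in both genotypes.

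**Figure D4:**
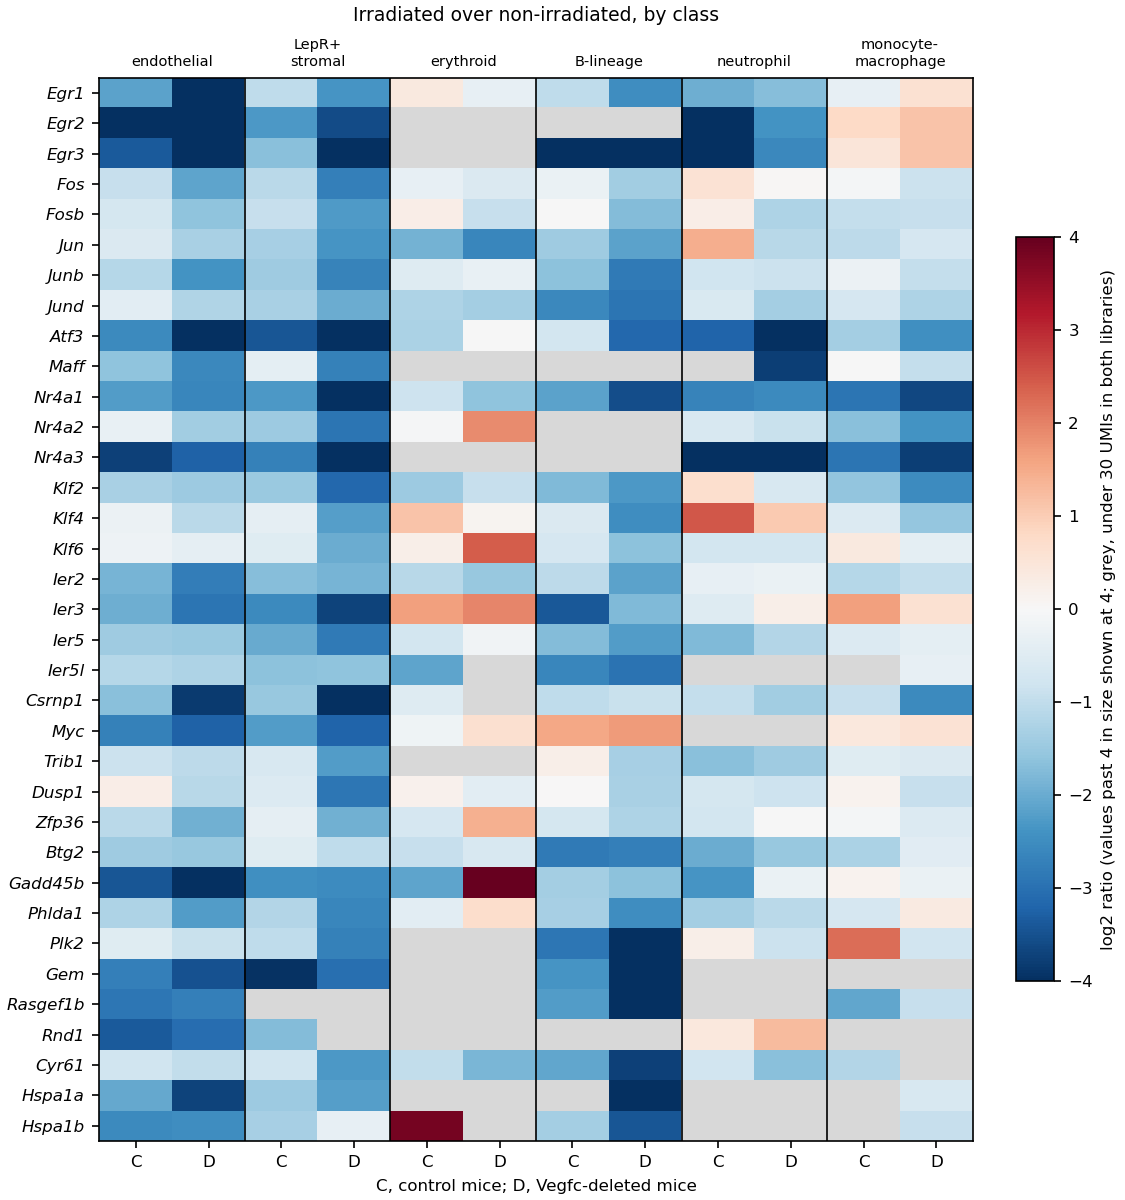
Colour gives the log2 ratio of irradiated over non-irradiated level for each of the 35 genes (rows) in 6 classes and 2 genotypes (C, control; D, Vegfc-deleted), with grey where both libraries had under 30 UMIs. Endothelial and LepR+ columns are blue for nearly every gene, except Dusp1 at 0.27 in control endothelium, while Myc in B-lineage cells and Ier3 in erythroid and monocyte-macrophage cells are red.

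The Vegfc-deleted and control libraries were then compared, first without irradiation. In endothelium 11 of 35 members were lower in the deleted library and 0 higher (median -0.41), against 3.85% of all genes lower and 4.18% higher. The 11 were Egr2, Egr3, Nr4a1, Nr4a3, Klf2, Klf6, Myc, Trib1, Phlda1, Plk2 and Hspa1b; the largest difference was that of Nr4a3, at -1.67, and at a 2-fold threshold it was the only 1 of the 11. In LepR+ cells 8 of 34 were lower and 3 higher (median -0.03), against 4.46% and 2.25% of all genes. Nr4a1 was higher there, by 0.77 (0.70 to 0.83), while it was lower in endothelium, at -0.74. In B-lineage cells 11 of 30 were higher and 1 lower (6.59% and 3.88% of all genes), Fosb by 1.34 and Nr4a1 by 1.13. Cluster 27 of that class held 9 control and 78 deleted cells, with the members at 1.11% and 1.21% of UMIs. They were at 0.507% and 0.572% in cluster 5 and at 0.739% and 0.826% in cluster 9. The part of cluster 27 in these counts was not tested. In erythroid cells 14 of 24 were lower and 1 higher (2.55% and 20.3% of all genes, or 20 and 0 members and 4.76% and 8.79% with trimmed mean scaling), Ier3 at -1.54. Neutrophils had 16 of 28 lower and 2 higher (7.24% and 10.2%), and monocytes and macrophages 6 of 28 and 2 (10.4% and 9.51%, or 8.47% and 12.1% with trimmed mean scaling).

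After irradiation the deleted library was lower for most members in the vascular and stromal classes. In endothelium 29 of 35 were lower and 0 higher (median -1.10; all genes 5.83% lower and 2.92% higher). In LepR+ cells 30 of 32 were lower and 0 higher (median -1.38; all genes 11.8% and 8.78%). In endothelium the largest differences were in Egr2 (-3.80), Egr3 (-3.15), Atf3 (-2.87), Csrnp1 (-2.58) and Gadd45b (-2.56). Rnd1 (-0.08), Btg2 (-0.22), Ier5 (-0.28), Rasgef1b (-0.34) and Ier5l (-0.52) were within 1.5-fold, as was Jun at -0.58. Ier2 in LepR+ cells differed little, at -0.18 (-0.35 to -0.02). In B-lineage cells 10 of 24 were lower and 0 higher (9.12% and 2.92% of all genes), and in monocytes and macrophages 15 of 32 and 0 (7.70% and 6.65%). Neutrophils had 13 of 26 lower and 1 higher (17.5% and 4.04%), or 8 lower with trimmed mean scaling (10.3% and 8.21%). Erythroid cells had 12 of 18 lower and 4 higher (6.99% and 25.5%), and 12 lower with trimmed mean scaling (18.9% and 14.5%). Granule and haemoglobin transcripts also differed between these libraries, as given above.

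The genotypes' irradiation ratios were set against each other as deleted minus control, with an interval for counting error, so that 4 libraries enter each value. The interval lay below 0 for 26 of 35 members in endothelium and above 0 for 0 (median -0.83), against 9.90% and 8.75% of all genes. In LepR+ cells it lay below 0 for 27 of 33 and above for Hspa1b alone (median -1.43; 16.5% and 15.2% of all genes). Endothelial Fos differed by -1.20 (-1.25 to -1.16), Egr1 by -1.83 (-1.91 to -1.74) and Dusp1 by -1.38 (-1.45 to -1.31). Btg2 at -0.08 (-0.16 to -0.00), Ier5 at -0.07 (-0.21 to 0.07) and Rasgef1b at 0.16 (-0.14 to 0.46) had nearly the same ratio in both genotypes. Among LepR+ cells Nr4a1 differed by -3.08 (-3.74 to -2.41), Dusp1 by -2.36 (-2.53 to -2.20) and Gadd45b by -0.07 (-0.37 to 0.24). The counts below and above 0 were 19 and 1 of 29 in B-lineage cells (18.3% and 7.93% of all genes), 14 and 4 of 29 in monocytes and macrophages (8.68% and 10.6%), 9 and 9 of 28 in neutrophils (18.2% and 6.06%) and 5 and 7 of 22 in erythroid cells (13.2% and 19.0%).

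Within a library all classes shared the same preparation, so the classes were also compared with each other. The endothelial minus LepR+ difference of irradiation ratios in control mice lay below 0 for 14 and above 0 for 16 of 34 members (median 0.04; 20.2% and 16.9% of all genes). The difference was -1.14 (-1.18 to -1.10) for Egr1 and -0.96 (-1.03 to -0.89) for Btg2, whose ratios were lower in endothelium. It was 0.76 (0.72 to 0.80) for Jun, lower in LepR+ cells, and 0.02 (-0.05 to 0.09) for Cyr61. In deleted mice 7 of 33 lay below and 17 above 0 (median 0.67; 16.4% and 12.0%), with Nr4a1 at 2.78 (2.11 to 3.44), Klf6 at 1.64 (1.51 to 1.77) and Cyr61 at 1.34 (1.21 to 1.47). Against B-lineage cells, 11 were below and 13 above 0 of 29 in control mice (19.7% and 31.2% of all genes), and 9 and 12 of 30 in deleted mice (14.8% and 32.2%). Against erythroid cells, 15 were below and 3 above of 25 in control mice (9.45% and 56.5%), and 17 and 2 of 22 in deleted mice (9.26% and 52.2%).

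The class with the highest level of a gene was recorded in each library. Of the 35 members, 18 were highest in endothelium and 14 in LepR+ cells in the non-irradiated control library, with Jund highest in B-lineage cells, Atf3 in monocytes and macrophages and Trib1 in neutrophils. The non-irradiated deleted library also had 18 and 14. In the irradiated control library 16 were highest in endothelium and 14 in LepR+ cells, and in the irradiated deleted library 16 and 8. There, monocytes and macrophages were highest for Egr2, Egr3, Atf3, Ier3 and Hspa1a, neutrophils for Ier2, Trib1 and Rnd1, B-lineage cells for Csrnp1 and Myc, and erythroid cells for Nr4a3. Among these genes, the intervals of the highest and next class overlapped for Csrnp1 and Hspa1a. Erythroid Nr4a3, at 7.099 CPM, rested on under 30 UMIs, too few to be counted.

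Because most classes held different clusters before and after irradiation, the share was also taken in 12 clusters with at least 10 cells in every library. Endothelial cluster 7 (273, 339, 27 and 27 cells) had 4.15%, 3.85%, 2.53% and 1.56%, and cluster 0 (31, 18, 1416 and 662 cells) had 3.9%, 2.76%, 2.22% and 1.14%. LepR+ cluster 2 (1070, 627, 40 and 18 cells) had 4.52%, 4.75%, 1.59% and 0.938%. In these 3 clusters both irradiated libraries were under both others, as in the whole classes. B-lineage cluster 5 had 0.507%, 0.572%, 0.248% and 0.205%. The exceptions to a lower share after irradiation were neutrophil cluster 8 in control mice, at 0.183%, 0.293%, 0.274% and 0.235%, and erythroid cluster 17, with cells of low UMI count, in deleted mice, at 0.138%, 0.0777%, 0.0766% and 0.239%. The unnamed cluster 25, whose leading genes include Ly6c1, Sparcl1 and Flt1 and which scored high for the general, sinusoidal and arterial endothelial lists, had 4.09%, 3.05%, 1.94% and 1.09%.

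**Figure D5:**
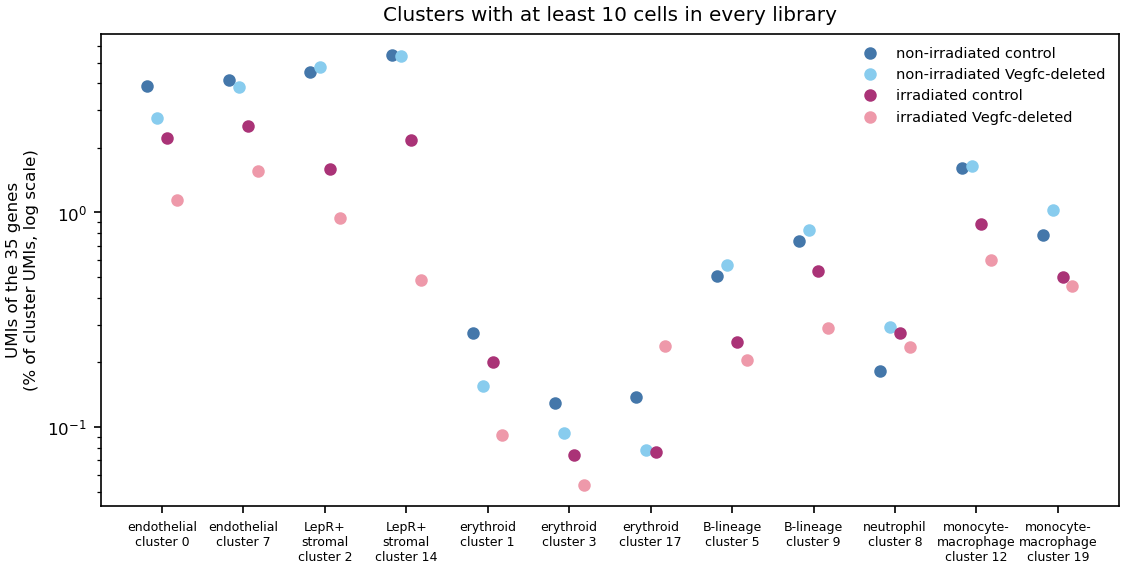
Points give the UMIs of the 35 genes as a percentage of a cluster's UMIs (log axis) in each library, for the 12 clusters of named classes with at least 10 cells in every library. Endothelial cluster 7 goes from 4.15% and 3.85% to 2.53% and 1.56%, and erythroid cluster 17 is highest, at 0.239%, in the irradiated deleted library.

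Genes of the same pathways outside the 35 were grouped in 6 lists of 58 genes. The genes named had ratios of the same direction in both genotypes and ranked first in their list by the smaller of the 2 ratios, unless said to be picked out afterwards. Early NF-kB, STAT3 and C/EBP genes were lower with the members: 9 of 10 in irradiated endothelium of both genotypes (medians -1.62 and -1.88), 8 and 10 of 10 in LepR+ cells, and 0 higher. Of all genes in endothelium, 7.80% were lower and 18.1% higher in control mice, and 7.17% and 15.2% in deleted mice. In LepR+ cells these shares were 10.4% and 17.4%, and 12.5% and 18.3%. Nfkbia, the inhibitor of NF-kB, was at 982.7, 866.2, 173.1 and 123.1 CPM in endothelium and 1202, 804.7, 201.1 and 121.4 CPM in LepR+ cells. Tnfaip3, an enzyme that dampens NF-kB signalling, was at 36.28, 27.44, 8.097 and 5.745 CPM in endothelium and 75.65, 110.7, 19.98 and 10.79 CPM in LepR+ cells. Both irradiated libraries were low for both genes. The transcription factor gene Cebpd was at 621.3, 728.2, 143.4 and 155.8 CPM in endothelium, and Socs3, a brake on STAT3, at 1169, 1177, 408.3 and 224.6 CPM in LepR+ cells. Between the irradiated genotypes, 2 of 10 were lower in the deleted library in endothelium and 5 of 10 in LepR+ cells, against 5.83% and 11.8% of all genes.

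Of AP-1 partners, SRF and its cofactors, 3 of 12 were lower in endothelium in each genotype, with medians of 0.01 and 0.06. Of all genes there, 7.80% and 7.17% were lower in control and deleted mice. Fosl2, a FOS relative, was at 585, 523.9, 151 and 95.03 CPM in endothelium and 142.8, 191.7, 56.24 and 33.73 CPM in LepR+ cells. Srf itself was at 89.4, 54.6, 35.42 and 25.6 CPM and the CREB-family gene Crem at 41.14, 46.57, 16.43 and 14.94 CPM in endothelium. Of MAP kinase feedback genes, 3 of 8 and 4 of 7 were lower in endothelium, against the same shares of all genes. The ERK phosphatase gene Dusp5 was at 93.61, 68.74, 22.86 and 14.28 CPM and Dusp2 at 31.42, 9.424, 1.965 and 0.8207 CPM. Spry2, an inhibitor of growth factor receptor signalling, was at 89.72, 69.57, 54.06 and 37.59 CPM. In LepR+ cells Dusp6 was at 116.3, 107.7, 195.2 and 110 CPM, highest in the irradiated control library.

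Heat shock genes were lower for 5 of 12 and 4 of 12 in endothelium, against 7.80% and 7.17% of all genes in control and deleted mice. The numbers higher were 1 (Hspb8) and 0, against 18.1% and 15.2% of all genes. The co-chaperone gene Dnajb1 was at 272.7, 221.2, 90.49 and 45.47 CPM, Dnaja1 at 628.4, 539.4, 344.8 and 340.1 CPM and the HSP90 gene Hsp90aa1 at 502.4, 369.5, 278.3 and 227.8 CPM. All 3 were lower in both irradiated libraries. In LepR+ cells 3 of 12 of the list were lower and 1 higher in control mice (median -0.14; 10.4% and 17.4% of all genes). In deleted mice 3 of 11 were lower and 2 higher (median 0.15; 12.5% and 18.3%). In B-lineage cells 6 of 9 genes of this list were higher after irradiation in both genotypes and 0 lower (medians 0.94 and 1.02). Of all genes there, 21.5% and 15.1% were higher and 22.2% and 26.9% lower in control and deleted mice. Picked out afterwards, the 6 heat shock genes were Hsp90aa1, Hsp90ab1, Hspa8, Hspd1, Hspe1 and Hsph1. Cluster 21 of that class held 0, 5, 216 and 78 cells, and its part in these counts was not tested. Integrated stress response genes were lower for 3 of 7 and higher for 2 in endothelium of control mice, where 7.80% of all genes were lower and 18.1% higher. In deleted mice they were lower for 4 of 6 and higher for 1, against 7.17% and 15.2%. The counts of higher genes in so short a list are not far from those shares. Sesn2, a stress-induced p53 target picked out afterwards, was among the higher ones, at 19.11, 18.29, 53.34 and 34.47 CPM. Ddit3, a pro-apoptotic transcription factor, was at 68.99, 35.48, 17.74 and 11.33 CPM, and Ddit4, an inhibitor of mTORC1, at 92.64, 115.3, 23.75 and 21.99 CPM. Ppp1r15a, the phosphatase subunit that ends this response, was at 558.4, 560.5, 290.8 and 123.1 CPM.

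Of the YAP and SRF matrix list, 1 of 4 was lower and 1 higher in endothelium of each genotype. Of all genes there, 7.80% were lower and 18.1% higher in control mice, and 7.17% and 15.2% in deleted mice. A count of 1 higher among 4 is not far from those shares. The higher gene was Edn1, which encodes the vasoconstrictor endothelin, at 1.943, 1.109, 12.74 and 9.191 CPM from 6, 4, 214 and 56 UMIs. Ctgf, a relative of Cyr61, was at 715.5, 755.7, 314.2 and 311 CPM and Amotl2, a YAP target, at 298.6, 244.2, 494.2 and 380.5 CPM in LepR+ cells. There Ctgf was low and Amotl2 high in both irradiated libraries.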

How the data were processed

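The authors deposited a matrix of raw UMI counts for each library. Counts came from Cell Ranger 2.1.1 and mm10 per the submitters' processing notes, while the matrix header per the file headers names software 3.1.0, and which of them made the counts was not settled. Further filters and read handling are not stated there. Totals per library were 67370522, 77284922, 54462123 and 64282090 UMIs over 7454, 7737, 5150 and 5134 barcodes.

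Cells with under 500 genes or over 10% mitochondrial UMIs were left out (2071, 2200, 1175 and 895), as were doublets called by Scrublet at 0.8% per 1000 barcodes (444, 479, 212 and 211). The 2000 most variable genes, less the members and related response genes, gave 40 principal components, 20 neighbours and 35 Leiden clusters (resolution 1, seed 7; scanpy 1.11.5, leidenalg 0.10.2, Python 3.11.15). A cluster took the name of the list, of 20 marker lists, whose markers stood at least 2 log2 units over the median cluster and 1 over the next list, with at least 3 detected, and no other list had more markers among the cluster's top 10 genes; low-depth clusters also needed a marker of their own there. On these rules 4 clusters stayed unnamed. UMIs were summed per class and library and divided by the class total. Intervals at 95% are exact Poisson or conditional ones (a prior of 0.5 for log2 ratios) and cover counting error only, and a difference of ratios took its interval by the delta method. With 1 library per group no p-value was computed; the labels' replicates are pools of mice. Levels are given for every member in the endothelial and LepR+ stromal classes, elsewhere for Fos, Jun, Junb, Egr1, Ier2, Dusp1, Klf2, Klf6, Hspa1a and Myc, and for up to 3 genes of each other list. The calling step was tested on simulated counts with counting error only, so that test says nothing of variation between animals, preparations or cells. The edgeR 4.0.16 package in R 4.3.3 gave trimmed mean scaling only. Alternatives tried were other filters, clusterings, scalings, thinning, a mean over cells and thresholds. The members, gene lists and tests were chosen with earlier results of these data known.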

Additional observations from a re-analysis of the deposited data

Results flagged for a closer look

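For 5 genes the irradiation ratio (log2, irradiated over non-irradiated) had opposite signs in the control and the Vegfc-deleted pair of libraries, past 1.5-fold in each. Every pair is single libraries, and the differences were not tested. In erythroid cells Zfp36 had -0.68 in control and 1.43 in deleted mice, and 58 of its 69 UMIs in the irradiated deleted library came from 10 cells of cluster 17, whose cells have low UMI counts. Erythroid Gadd45b had -2.12 and 5.61, and 139 of 140 UMIs came from 5 cells of the same cluster. Neutrophil Jun had 1.46 and -1.10, with 252 of 545 UMIs of the irradiated control library in 1 cell. Neutrophil Klf2 had 0.68 and -0.65, and there 675 UMIs lay in 69 of the 81 cells of cluster 6. Plk2 in monocytes and macrophages had 2.23 and -0.78, with 71 of 124 UMIs in 19 cells of cluster 16 and 42 in 7 cells of cluster 12. The part of these few cells in the ratios was not tested.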

How the results depend on the processing

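Of 186 counts of lower members under alternatives, 167 stayed within 1.5 times the reported count. After irradiation in control mice, thinning gave 6 erythroid (reported 12), 15 B-lineage (23), 11 neutrophil (19) and 8 monocyte-macrophage members (14), and 19 LepR+ members (30) between the irradiated genotypes; fewer members reach 30 UMIs after thinning by construction. At least 2-fold lower were 7 erythroid members in control and 5 (reported 8) in deleted mice, 11 neutrophil members in control and 8 monocyte-macrophage members (20) in deleted mice. Between the non-irradiated genotypes that threshold left 1 endothelial (11) and 4 LepR+ members (8). Erythroid counts in deleted mice were 14 with the members kept among the clustering genes, 13 at resolution 2, 17 without doublet removal and 14 without low-depth clusters. Monocyte-macrophage counts in control mice were 22 by a mean over cells and 9 without low-depth clusters. Within 1 cluster held by all 4 libraries, 13 B-lineage members were lower in control mice and 10 LepR+ members between irradiated genotypes. Beyond those fewer members counted, the cause was not tested.

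Of 1440 values for single genes, 3 reversed: LepR+ Nr4a2 (0.31) in control and Hspa1a (0.08) in deleted mice within 1 cluster, and Plk2 (0.16) in control mice without doublet removal. Of 1282 for genes called lower, 1277 were still past 1.5-fold. Taking only sinusoidal clusters kept the same clusters, 0, 7 and 24, as the endothelial class. That alternative's values, in these totals and in the counts above, repeat the reported ones by construction. The 2-fold threshold, the single cluster, the low-depth clusters and adding the unnamed endothelial cluster 25 were chosen after seeing the data. No paired analysis was possible because each group has 1 library. Depth limits several classes, such as LepR+ cells in the irradiated deleted library (190 cells), where several members rest on 1 to 7 UMIs, and monocytes and macrophages in the non-irradiated control library (65 cells).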

Other observations

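Rarer classes held the members at other levels. In osteolineage cells (22, 7, 148 and 80 cells) they made up 2.09%, 0.8705%, 0.5279% and 0.2923% of UMIs, highest in the non-irradiated control library. Pericytes and smooth muscle cells (18, 16, 15 and 7 cells) had 5.338%, 4.163%, 2.082% and 0.662%, with both irradiated libraries low. Basophil or mast cells (216, 26, 35 and 25 cells) had 1.127%, 1.552%, 1.469% and 0.9558%, so that the irradiated control library was above the non-irradiated one. Megakaryocytes (142, 140, 219 and 44 cells) had 0.4171%, 0.8251%, 0.7772% and 0.5906%, lowest in the non-irradiated control library. T and NK cells, absent from the non-irradiated control library after filters, had 0.9965%, 0.9092% and 0.4764% in the other 3. Dendritic cells (7, 46, 13 and 100 cells) had 0.6788%, 0.8772%, 0.6968% and 0.4151%. Each value is 1 library, several rest on fewer than 50 cells, and none was tested.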
